A study of Mus musculus with 48 samples.

Results

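The cells described are Foxp3 regulatory T cells of GL261 gliomas in the mouse brain. They were selected on measured counts: at least 1 UMI (unique molecular identifier, a single counted RNA molecule) over Cd3e, Cd3d and Cd3g, at least 1 UMI of Foxp3, 0 UMIs of Cd8a and Cd8b1, and 0 UMIs of the macrophage gene Ms4a7. Among the 8726 cells of the whole-tumor mix in which 500 or more genes were detected, 178 met this rule. Foxp3 is the transcription factor that gives regulatory T cells their identity, and these cells hold other T cells in check through inhibitory receptors, suppressive cytokines and uptake of interleukin 2. In tissues and tumors many of them take on an effector state with their own receptors, and in gliomas they are known as cells that restrain the local immune response. P-selectin, the product of Selp, is an adhesion receptor whose ligand PSGL-1, encoded by Selplg, is carried by T cells.

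GL261, a glioma line of C57BL/6 mice, was implanted into the striatum of male C57BL/6 mice aged 6 weeks. Before that its cells received, by retrovirus and puromycin selection, a hairpin RNA against Selp (shSELP) or a negative control hairpin (shNC), so the host cells, regulatory T cells included, kept an intact Selp. The labels place the mix at day 16 after inoculation and the methods at a later day, and the kit version also differs between them. Brains were pooled, 3 for each group, and CD11b+ cells, CD45+ cells and the remainder were combined in equal parts, so that shares of cells refer to what was loaded rather than to the tumor. There are 2 libraries per group, shNC 1, shNC 2, shSELP 1 and shSELP 2, and values are given in this order. It is not stated whether the libraries of a group stem from separate pools, so a p-value here measures the spread between libraries, which may be technical. The groups rest on the labels, since Selp gave 17, 25, 21 and 21 UMIs over all cells of the libraries and 0, 0, 0 and 1 in the regulatory T cells.

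The libraries held 51, 45, 32 and 50 regulatory T cells, with medians of 4002, 5395, 6809.5 and 6691 UMIs per cell. Their UMIs summed to 306812, 357389, 258720 and 471785, so that 1 UMI corresponds to 3.26, 2.80, 3.87 and 2.12 counts per 1000000 (CPM), the unit of all levels below. Single cells ranged from 1583 to 29558 UMIs with a median of 5509, and from 865 to 4941 genes with a median of 1992.5. Mitochondrial counts made up 0.773% to 4.90% of a cell, median 3.02%. Libraries shared 5 cell barcodes over all cells (2 between shNC 2 and shSELP 2, 3 between shSELP 1 and shSELP 2) and 0 between regulatory T cells.

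Foxp3 lies at chrX:7573644-7595245, plus strand (GRCm38). It gave 1 to 13 UMIs per selected cell with a median of 2, and its summed level was 362, 364, 301 and 349.7 CPM. The level was lowest in shSELP 1 and close together in the other libraries. Of 216 cells with a Foxp3 UMI, 6 had no Cd3 UMI, 30 had a Cd8a or Cd8b1 UMI and 2 an Ms4a7 UMI, and 0 were left out for detecting under 500 genes alone. Foxp3 UMIs in other cell types, a measure of free RNA in the droplets, were few: 3 of 2655 macrophages (cells with Ms4a7 and no Cd3 UMI) held one, 0.113% at a median of 13771 UMIs per cell. In 139 B cells, 110 NK cells and 51 neutrophils, at medians of 5072, 4010.5 and 2637 UMIs, the count was 0, with exact 95% upper limits of 2.62%, 3.30% and 6.98%. Among cells with Cd3 and Cd4 but no Cd8 UMIs the share was 98 of 549, or 17.9%.

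Just inside the threshold, the 56 cells with 1 Foxp3 UMI had a median depth of 4454 UMIs, and the 122 cells with 2 or more had 6368.5. The transcription factor Ikzf2 (Helios) stood at 1472 CPM in the cells with 1 Foxp3 UMI, 1369 CPM in those with 2 or more and 158 CPM in the Foxp3-negative CD4 cells outside the rule. Izumo1r, which encodes folate receptor 4, stood at 355, 461 and 68.2 CPM in the same 3 sets of cells. The granule protease gene Gzmb gave 2925, 2417 and 309 CPM, and the cytokine gene Ifng gave 9.18, 82.4 and 1799 CPM. Cells with a single Foxp3 UMI lay near those with more on Ikzf2, Izumo1r and Gzmb, and lower on Ifng, and both sets lay apart from the Foxp3-negative cells. The 30 cells left out for a Cd8 UMI were deeper, with a median of 11625 UMIs, and held Ikzf2 at 1204 CPM, Gzmb at 4166 CPM and Ifng at 37.3 CPM. Of the Foxp3-negative CD4 cells, 107 held UMIs of both Ikzf2 and Il2ra, at a median depth of 8344 UMIs, with Ikzf2 at 331 CPM and Ifng at 2512 CPM.

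Regulatory T cells made up 9.57%, 8.27%, 6.90% and 9.12% of the cells with a Cd3 UMI (51 of 533, 45 of 544, 32 of 464 and 50 of 548). The exact binomial 95% intervals were 7.21% to 12.4%, 6.10% to 10.9%, 4.76% to 9.60% and 6.85% to 11.9%. The groups overlapped, with shSELP 1 lowest and shSELP 2 between the shNC libraries. The means were 8.92% in shNC and 8.01% in shSELP, a difference of -0.910 percentage points (exact two-sided permutation p = 0.667, where 0.333 is the smallest p that 2 against 2 libraries allow). Without shSELP 1 the difference was 0.204 points, without shNC 1 it was -0.262, without shNC 2 -1.56 and without shSELP 2 -2.02. It was 0.247 points when at least 2 Foxp3 UMIs were asked for.

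Within the CD4 lineage the result depended on the rule. Of regulatory and conventional CD4 T cells together, 37.0%, 30.8%, 27.8% and 21.7% were regulatory, with means of 33.9% and 24.8% (difference -9.11 points, exact permutation p = 0.333, the smallest possible), and the groups did not overlap. The conventional rule asks for a Cd4 UMI, though, and the regulatory rule does not. With a Cd4 UMI asked for in both classes, an alternative added after the data were seen, 20.2%, 17.2%, 20.95% and 15.5% were regulatory (22 of 109, 21 of 122, 22 of 105 and 33 of 213). The groups then overlapped, with means of 18.7% and 18.2% (difference -0.476 points, exact permutation p = 1). A Cd4 UMI was found in 43.1%, 46.7%, 68.8% and 66% of the regulatory T cells, at median depths of 4002, 5395, 6809.5 and 6691 UMIs per cell. Both were higher in the shSELP libraries, and the part of depth in these shares was not tested. Conventional CD4 T cells, defined by Cd3 and Cd4 UMIs without Foxp3, Cd8 or Ms4a7 UMIs, made up 16.3%, 18.6%, 17.9% and 32.8% of the cells with a Cd3 UMI, so shSELP 2 stood apart in its conventional cells. Set against CD8 T cells, the order changed: 17.1%, 17.0%, 11.4% and 24.0% of regulatory and CD8 T cells together were regulatory (exact permutation p = 1). The shSELP libraries lay on either side of both shNC libraries here.

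**Figure D1:**
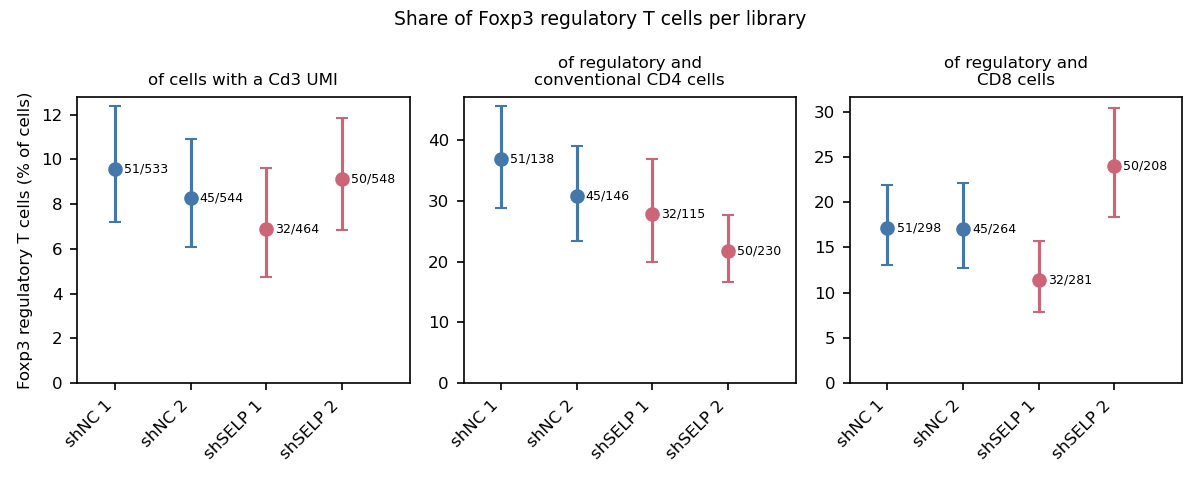
Share of Foxp3 regulatory T cells in each library (y axis, percent of cells) among cells with a Cd3 UMI, among regulatory and conventional CD4 T cells, and among regulatory and CD8 T cells; points are shares with their cell counts and bars exact binomial 95% intervals, blue for shNC and red for shSELP. The groups separate only in the middle panel, where shares run from 37.0% in shNC 1 to 21.7% in shSELP 2, and where a Cd4 UMI is asked for in conventional cells alone; asked for in both classes, the groups overlap (not drawn).

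How the cells differ from other T cells of the same tumors was tested on UMIs summed per library, against 451 conventional CD4 T cells (87, 101, 83 and 180) with a median depth of 6513 UMIs and 873 CD8 T cells (247, 219, 249 and 158) with 6573. A gene was called where its adjusted p was under 0.05. Differences are log2 fold changes ± SE, positive where regulatory T cells were higher, and the genes of the rules were not tested. The SE is the absolute log2 fold change divided by the square root of the F statistic of its edgeR test. Against conventional CD4 T cells 760 of 6647 genes were called (11.4%), 394 higher (5.93%) and 366 lower (5.51%). The median over all genes tested was -0.01. Without shSELP 2 the count was 403 and without shNC 2 it was 448.

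The genes that mark regulatory T cells were mostly higher. Of 18 such genes 17 were in the table, 14 were tested, 9 were higher and 1 was lower, with a median log2 fold change of 0.90 over the 14. Ikzf2, at chr1:69531214-69687245, minus strand, reached 1463, 1304, 1395 and 1414 CPM against 257, 155, 175 and 122 CPM in conventional cells. The difference was 2.99 ± 0.16 (edgeR adjusted p = 1.12e-08), and the gene was higher in 4 of 4 libraries with no overlap. Il2ra, the chain that gives the interleukin 2 receptor its high affinity, had 557, 716, 827 and 632 CPM against 252, 223, 175 and 212 CPM (1.63 ± 0.17, adjusted p = 9.07e-06). Its levels in all 4 libraries lay above every conventional value. Ctla4, an inhibitory receptor that takes costimulatory ligands from other cells, had 1890.4, 1385, 1519 and 1549 CPM against 1096, 606, 636 and 841 CPM (0.99 ± 0.14, adjusted p = 0.000151). Tnfrsf4 (OX40), a costimulatory receptor, had 2141, 1665, 2153 and 2251 CPM against 1361, 1093, 1126 and 1010.5 CPM (0.82 ± 0.16, adjusted p = 0.00287). Neither overlapped between the classes. Icos, a costimulatory receptor of activated T cells, was not called, at 887, 811, 1136 and 1009 CPM against 813, 639, 620.1 and 759.9 CPM (0.40 ± 0.14, adjusted p = 0.0813).

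Further along this list, Izumo1r had 430.2, 302, 421 and 549 CPM against 95.1, 56.9, 98.1 and 55.0 CPM (2.53 ± 0.21). Lrrc32, which encodes GARP, the surface docking receptor of latent TGF-beta, had 97.8, 75.5, 50.2 and 89.0 CPM against 9.32, 7.12, 7.01 and 5.98 CPM (3.43 ± 0.31). Both were higher in all 4 libraries. Tnfrsf18 (GITR) differed by 1.12 ± 0.12, the Ikaros family factor Ikzf4 by 1.20 ± 0.24 and the actin-capping gene Capg by 0.82 ± 0.12. The gene that went the other way was Nrp1, a semaphorin and growth factor receptor used as a mark of thymus-derived regulatory T cells. It stood at 19.6, 19.6, 27.1 and 12.7 CPM against 104, 81.8, 99.8 and 86.1 CPM (-2.33 ± 0.25, adjusted p = 1.28e-05) and was lower in 4 of 4 libraries. The genes Il2rb, Ikzf1 and Foxo1 were not called, with -0.32, -0.07 and -0.11. Gpr83 was too low to be tested, and Cd4, which the conventional rule uses, had 111, 75.5, 131 and 146 CPM, with a Cd4 UMI in 98 of the 178 cells.

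**Figure D2:**
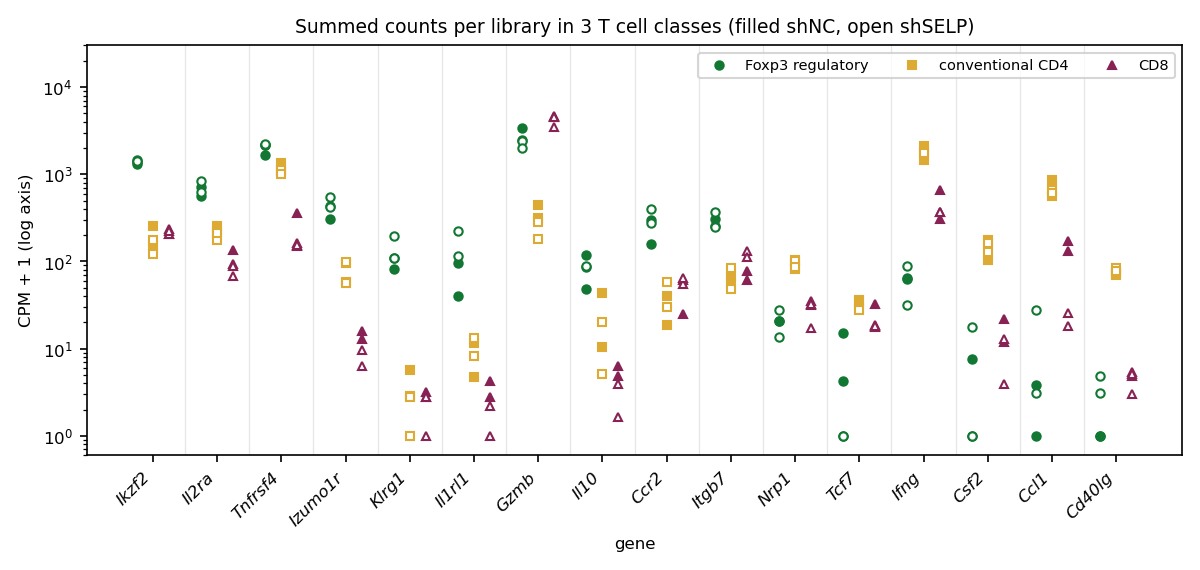
Summed level of 16 genes (x axis) in each library, as CPM plus 1 on a log axis (y axis), in Foxp3 regulatory (circles), conventional CD4 (squares) and CD8 T cells (triangles); filled symbols are shNC and open symbols shSELP libraries. Ikzf2 lies between 1304 and 1463 CPM in regulatory T cells and at most at 257 CPM in the other classes, while Ifng is lowest in regulatory T cells.

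Genes of activated and tissue-dwelling regulatory T cells were called higher more often than lower. Of 20 listed, 17 were tested, with 11 higher, 1 lower, 5 not called and a median of 0.84. Klrg1, an inhibitory receptor for cadherins on effector lymphocytes (chr6:122270596-122282882, minus strand), had 108, 81.1, 108 and 195 CPM against 1.86, 4.74, 0 and 1.79 CPM (5.82 ± 0.42, adjusted p = 2.00e-07). It was nearly absent from conventional cells in every library. Il1rl1, which encodes the interleukin 33 receptor ST2, had 39.1, 95.1, 224 and 114 CPM against 3.73, 10.7, 12.3 and 7.17 CPM (3.71 ± 0.36, adjusted p = 4.82e-06). The classes did not overlap, though the level differed several-fold between regulatory libraries. Gzmb, at chr14:56258838-56262260, minus strand, had 2444, 3428, 2393 and 1999 CPM against 315, 445, 180.4 and 283 CPM (3.03 ± 0.16, adjusted p = 1.12e-08). Itgae, the CD103 integrin chain that binds E-cadherin, had 32.6, 61.6, 50.2 and 82.7 CPM against 5.59, 1.19, 5.26 and 1.20 CPM (4.59 ± 0.67, adjusted p = 0.000216). All 4 genes were higher in 4 of 4 libraries.

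The transcription factors of this list were less far apart. Maf, which drives interleukin 10, had 665, 476, 773 and 674 CPM against 354, 223, 269.8 and 265 CPM (1.19 ± 0.19). Prdm1 (Blimp-1), a factor of terminal effector cells, had 97.8, 67.2, 124 and 110.2 CPM against 41.0, 53.4, 45.5 and 44.2 CPM (1.07 ± 0.21). Neither overlapped between classes. Gata3, a factor of type 2 and tissue-dwelling cells, differed by 0.66 ± 0.18 but was not called without shNC 2 (0.66), shSELP 1 (0.56) or shSELP 2 (0.63), nor by DESeq2. Tbx21 (T-bet), the factor of type 1 cells, was the lower gene at 22.8, 11.2, 3.87 and 8.48 CPM against 35.4, 35.6, 17.5 and 26.9 CPM (-1.37 ± 0.38), and was not called without shNC 2 or shSELP 2 (-1.23 in both). The other called genes were Tnfrsf9, Samsn1, Fgl2 and Lgals1, with 0.84, 0.87, 1.99 and 0.63. Lgals1 lost its call without shSELP 1 (0.34) or shSELP 2 (0.62). Areg, the growth factor amphiregulin of tissue repair, was not called at 476, 406, 533 and 477 CPM against 222, 417, 433 and 368 CPM (0.31 ± 0.38). Il1r2, Batf, Irf4 and Rora were not called either, and Ccr8 stood at 13.0, 14.0, 7.73 and 12.7 CPM, near the conventional 5.38 to 13.0 CPM, and was too low to be tested. Without shSELP 1 the list held 3 lower genes, and 0 without shNC 2 or shSELP 2. Pparg had at most 5.60 CPM in regulatory T cells.

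Molecules through which regulatory T cells act on other cells were divided. Of 15, 13 were tested, with 5 higher (Il10, Entpd1, Ctla4, Gzmb and Fgl2), 4 lower (Lag3, Pdcd1, Havcr2 and Lgals3) and a median of 0.03 (-0.08 to 0.22 with a library left out). Il10, the suppressive cytokine, had 117, 47.6, 85.0 and 86.9 CPM against 42.9, 9.49, 19.3 and 4.19 CPM (2.45 ± 0.38, adjusted p = 0.000388). It was higher in 4 of 4 libraries, each above the highest conventional value. Entpd1 (CD39), an enzyme that degrades extracellular ATP, had 97.8, 78.3, 96.6 and 127 CPM against 42.9, 59.3, 47.3 and 47.8 CPM (1.001 ± 0.18), and was not called without shSELP 2 (0.81). Its partner Nt5e (CD73), which makes adenosine, was not called (0.33 ± 0.30), nor were Tgfb1 (-0.28 ± 0.12), Ebi3, a subunit of interleukins 27 and 35 (0.03 ± 0.22), or Prf1 (-1.03 ± 0.42). The lower genes are mostly inhibitory receptors of activated and exhausted T cells. Pdcd1 (PD-1) had 108, 95.1, 69.6 and 99.6 CPM against 304, 302, 205 and 325 CPM (-1.64 ± 0.17, adjusted p = 8.71e-06). Every regulatory library lay below every conventional one. Havcr2 (TIM-3) had 45.6, 56.0, 77.3 and 76.3 CPM against 119, 134, 94.6 and 136 CPM (-0.97 ± 0.18), and Lag3 differed by -0.68 ± 0.15, not called without shNC 2 (-0.64), in cells of 2000 to 8000 UMIs (-0.22), without dividing cells (-0.40) or with regulatory T cells that held a Cd4 UMI (-0.35). Lgals3 (galectin 3) differed by -1.72 ± 0.28. Tigit and Il12a were too low to be tested.

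Costimulatory receptors gave 4 higher and 1 lower of 10 tested, median 0.34. Besides Tnfrsf4, Tnfrsf18 and Tnfrsf9, the receptor gene Cd27 was higher, with 140.2, 56.0, 124 and 267 CPM against 55.9, 36.8, 45.5 and 25.7 CPM (1.95 ± 0.34, adjusted p = 0.00115). It was above the conventional level in 4 of 4 libraries, by the least in shNC 2. Cd226, an activating receptor that shares its ligands with Tigit, was the lower gene, with 9.78, 2.80, 3.87 and 17.0 CPM against 35.4, 29.6, 43.8 and 35.9 CPM (-1.97 ± 0.35, adjusted p = 0.00119). Icos, Cd28, Tnfrsf1b, Slamf1 and Tnfrsf25 were not called.

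Genes of interleukin 2 and STAT5 signalling gave 3 higher, 3 lower and 8 not called of 14 tested, median -0.23. Il2ra was the receptor chain that was higher, while Il2rb and Il2rg differed by -0.32 ± 0.11 and -0.30 ± 0.14 and were not called. Socs1, a feedback inhibitor of cytokine receptors, had 26.1, 47.6, 15.5 and 25.4 CPM against 87.6, 66.4, 64.8 and 70.6 CPM (-1.33 ± 0.26), and Bcl2, a survival gene, had 32.6, 72.7, 38.7 and 23.3 CPM against 134, 97.2, 92.8 and 129 CPM (-1.52 ± 0.27). Both were lower in 4 of 4 libraries. The survival kinase gene Pim1 (0.50 ± 0.12) lost its call without shNC 2 (0.48) or shSELP 2 (0.49). Socs2 (0.92 ± 0.27) lost it without shNC 2 (0.65), shSELP 1 (0.94) or shSELP 2 (0.87). Stat5a (-0.90 ± 0.27) lost it without shNC 1 (-0.94), shNC 2 (-0.58) or shSELP 2 (-1.07). In this list the counts were 1 higher and 2 lower without shNC 2, and the same without shSELP 2.

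The cytokines of helper T cells were where regulatory T cells lay lowest. Of 12 listed, 11 were in the table, 5 were tested and all 5 were lower, with a median of -4.37. Tnf, Csf2, Cd40lg and Lta did not pass the filter on low counts in the regulatory sums alone. They could enter through the other classes, so that all 5 being lower follows in part from the filter. Ifng, at chr10:118441046-118445892, plus strand, the type 1 cytokine, had 61.9, 64.4, 30.9 and 86.9 CPM against 1448, 2129, 1806 and 1743 CPM (-4.86 ± 0.27, adjusted p = 1.12e-08). The lowest conventional library was above the highest regulatory one by more than 10-fold. Csf2 (GM-CSF), which acts on myeloid cells, had 6.52, 0, 0 and 17.0 CPM against 104, 177, 126 and 161 CPM (-4.37 ± 0.56, adjusted p = 6.83e-05). Cd40lg, the CD40 ligand of T cell help, gave 2 UMIs in regulatory T cells and was 52.4-fold lower (counting interval 14.4 to 434) than its 69.0, 70.0, 84.1 and 76.5 CPM in conventional cells. Tnf differed by -1.73 ± 0.29 and Lta by -2.74 ± 0.39. Il4, Il13, Il17a, Il21 and Il22 were at 0 in regulatory T cells, below a limit of 3 UMIs over the group. Relative to that limit Il13 was at least 33.7-fold lower than in conventional cells, where its UMIs came mainly from shSELP 2, Il17a at least 21.3-fold, mainly from shNC 1, and Il21 at least 8.98-fold. Il2 had 0, 8.39, 0 and 6.36 CPM against 11.2, 7.12, 3.503 and 4.19 CPM and was too low to be tested.

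Receptors that guide T cells into tissue gave 4 higher and 3 lower of 13 tested, median -0.24. With a library left out the median ran from -0.50 to -0.02. Ccr2, the receptor for monocyte chemoattractants, had 297, 157, 278 and 403 CPM against 39.1, 17.8, 57.8 and 29.3 CPM (3.09 ± 0.32, adjusted p = 7.96e-06). Itgb7, the integrin beta chain that pairs with Itga4 or Itgae, had 257, 305, 247 and 365 CPM against 67.1, 56.9, 82.3 and 47.8 CPM (2.27 ± 0.22, adjusted p = 4.67e-06). Both were higher in 4 of 4 libraries without overlap. Cxcr3, a receptor for interferon-induced chemokines, had 111, 58.8, 30.9 and 95.4 CPM against 26.1, 32.02, 43.8 and 24.5 CPM (1.304 ± 0.33). It was below the conventional level in shSELP 1, and lost its call without shNC 1 (1.03) or shSELP 2 (0.98). The lower genes were integrin chains: Itgb1 (-1.20 ± 0.19), and Itgal (-1.09 ± 0.15) and Itgb2 (-0.64 ± 0.14), the chains of LFA-1. Itgb2 lost its call without shNC 2 (-0.56). Cxcr6, which retains T cells in tissue, was not called, at 251, 95.1, 456 and 331 CPM against 511, 382, 350.3 and 493 CPM (-0.75 ± 0.24), and Cd44, Cxcr4, Itga4, Ccr1 and Ccr6 were not called. Without shSELP 1 the counts were 4 higher and 5 lower.

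Selplg, at chr5:113818536-113832644, minus strand, the ligand of P-selectin, had 355, 347, 286 and 441 CPM against 319, 312, 222 and 343 CPM and was not called (0.22 ± 0.14, adjusted p = 0.38). The regulatory value was the higher of the pair in each library, by less than the range between libraries. Among the 13 genes of PSGL-1 and the enzymes that decorate it, 7 were tested, with 0 higher, 1 lower and a median of 0.18. With a library left out the median ran from 0.10 to 0.25. The lower gene was the galactosyltransferase B4galt1 (-0.79 ± 0.24), not called without shNC 2 or shSELP 2 (-0.72 in both) nor by DESeq2. Fut7, the fucosyltransferase that completes selectin ligands, stood at 0, 8.39, 11.6 and 4.24 CPM, and Fut4, Gcnt1, St3gal3, Tpst1 and C1galt1c1 were likewise too low to be tested.

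Of the genes of resting and recirculating T cells, 3 were lower of 10 tested, median -0.34. Ccr7, the lymph node homing receptor, was not called, at 476, 489.7, 216 and 693 CPM against 595, 525, 646 and 594 CPM (-0.43 ± 0.26). Tcf7, a factor of memory and stem-like T cells, had 3.26, 14.0, 0 and 0 CPM against 35.4, 34.4, 28.0 and 26.9 CPM (-2.87 ± 0.52, adjusted p = 0.00147). It gave 6 UMIs in all. Bach2, a repressor of effector genes, had 0, 8.39, 7.73 and 0 CPM against 31.7, 18.98, 28.0 and 16.7 CPM (-2.63 ± 0.60), and was not called without shSELP 2 (-2.23) and too low to be tested without shNC 2. Lef1, Klf2, S1pr1, Satb1 and Il7r were not called.

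Killing genes gave 2 higher and 6 lower of 11 tested, median -1.03 (-1.82 to -0.69 with a library left out). Gzmb and the chemokine gene Ccl5 were higher, Ccl5 with 407, 730.3, 839 and 1992 CPM against 283, 441, 543 and 712 CPM (0.87 ± 0.22), not called without shSELP 2 (0.60), where its level was highest. Klrd1 (CD94), the partner of NKG2 receptors, had 3.26, 36.4, 27.1 and 12.7 CPM against 533, 549, 342 and 509 CPM (-4.67 ± 0.28, adjusted p = 2.42e-08). Fasl, the death ligand, differed by -2.30 ± 0.39 and Ccl3 by -1.83 ± 0.37. Nkg7 (-0.74 ± 0.16) and the granzyme Gzmc (-3.36 ± 0.83) lost their call without shNC 2 (-0.54 and -3.00). Gzmc also lost it in cells of 2000 to 8000 UMIs (-0.71) and without dividing cells (-2.17). Gzmk was at 0 UMIs in regulatory T cells, at least 2.82-fold lower than in conventional cells, and lost its call without shNC 2 or shSELP 2. Of the granzymes called, Gzmb was the one that was higher. Without shNC 2 the lower genes numbered 3.

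Genes used after the T cell receptor is engaged gave 0 higher and 5 lower of 14 tested, median -0.41. Nr4a2, an orphan nuclear receptor induced by receptor signals, had 39.1, 33.6, 46.4 and 46.6 CPM against 268, 146, 235 and 153 CPM (-2.23 ± 0.19, adjusted p = 1.20e-06). Its relative Nr4a3 differed by -1.36 ± 0.23 and the NF-kappa-B gene Rel by -0.56 ± 0.12. Nr4a2 and Nr4a3 were below the conventional level in every library. Nfkb1 (-0.54 ± 0.12) lost its call without shNC 2 or shSELP 2 (-0.48 in both), and Tnfaip3 (-0.73 ± 0.18), a brake on NF-kappa-B, without shNC 1 (-0.64). Nr4a1 (-0.56 ± 0.20) and Cd69 (-0.23 ± 0.23) were not called. Immediate early and heat shock genes, which tissue dissociation raises, gave 0 higher and 3 lower of 15, median -0.37. Junb differed by -0.91 ± 0.11, while Fosb (-1.28 ± 0.32) lost its call without shNC 1 (-0.97). Ier2 (-0.65 ± 0.17) lost it without shNC 1 (-0.62), shSELP 1 (-0.55) or shSELP 2 (-0.56), and 1 gene was lower without shNC 1 and 2 without shSELP 2.

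Interferon-stimulated genes lay on the other side, with 6 higher and 0 lower of 14 tested and a median of 0.66. Ly6a (Sca-1) had 1535, 1726, 2682 and 2359 CPM against 958, 1069, 1125 and 1036 CPM (0.92 ± 0.13, adjusted p = 0.00016). Igtp, a GTPase of cell-autonomous defense, had 225, 179, 228 and 320.1 CPM against 116, 84.2, 105 and 126 CPM (1.12 ± 0.20, adjusted p = 0.00143). Both were higher in 4 of 4 libraries. Isg20, Zbp1 and Bst2 differed by 1.05 ± 0.22, 0.74 ± 0.15 and 0.66 ± 0.13, and Bst2 was not called without library as a block. Ifit1, Ifit3, Isg15, Irf7, Stat2, Rsad2, Usp18 and Ifi47 were not called.

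Genes of dividing cells gave 2 higher and 0 lower of 18 tested, median 0.43 (0.23 to 0.56 with a library left out). These were Mcm6 (0.53 ± 0.14), of the replicative helicase, and Tyms (0.66 ± 0.20), of nucleotide synthesis. Mcm6 lost its call without shNC 1 (0.51), shNC 2 (0.49) or shSELP 2 (0.57), and its direction turned to -0.05 in cells of 2000 to 8000 UMIs and to -0.24 without dividing cells. Tyms lost its call without shNC 1 (0.70), shNC 2 (0.75) or shSELP 2 (0.68), and its difference was 0.02 in cells of 2000 to 8000 UMIs and 0.29 without dividing cells, with the call lost in both. Without shSELP 1 the count was 5 and without shNC 2 it was 0. With every cell thinned at random to 2000 UMIs, a UMI of Mki67 or Top2a was found in 45 of 171 regulatory T cells, or 26.3% (19.9% to 33.6%), with 19.6%, 39.5%, 21.9% and 24.0% in the libraries. The share was highest in shNC 2. It was 25.5% in conventional and 24.4% in CD8 T cells, and 2 of 34, or 5.88% (0.720% to 19.7%), in neutrophils, which do not divide, at a median depth of 2637 UMIs. Without thinning it was 46.1%, 44.3% and 44.7% in the 3 T cell classes.

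The called genes of largest fold change, at a mean of at least 50 CPM and with the same direction in all 4 libraries, add others to these lists. On the higher side, after Klrg1, Il1rl1, Ccr2, Gzmb, Ikzf2, Izumo1r and Il10, came Gimap7, a GTPase of lymphocyte survival, with 433, 274, 332 and 337 CPM against 61.5, 68.8, 26.3 and 37.1 CPM (2.81 ± 0.21, adjusted p = 3.15e-07), and Bmyc, a relative of Myc, with 173, 115, 209 and 237 CPM against 39.1, 30.8, 57.8 and 25.1 CPM (2.33 ± 0.25, adjusted p = 1.19e-05). Both were higher in 4 of 4 libraries, as the rule for naming them asks. On the lower side, besides Ifng, Klrd1 and Csf2, came Ccl1, the ligand of Ccr8, with 0, 2.80, 27.1 and 2.12 CPM against 557, 853, 660.4 and 606 CPM (-6.81 ± 0.72, adjusted p = 9.96e-06). Tnfsf11 (RANK ligand) had 29.3, 19.6, 38.7 and 6.36 CPM against 572, 505, 531 and 636 CPM (-4.76 ± 0.28, adjusted p = 2.02e-08), and Tnfsf8 (CD30 ligand) had 6.52, 0, 3.87 and 19.1 CPM against 168, 155, 269.8 and 105 CPM (-4.24 ± 0.45). These ligands were scarce in every regulatory library. Klrc1, which encodes NKG2A, had 0, 2.80, 23.2 and 17.0 CPM against 136, 159, 158 and 267 CPM (-4.15 ± 0.34). Ifitm1, an interferon-induced membrane gene, had 6.52, 95.1, 0 and 329 CPM against 1605, 1454, 266 and 2425 CPM (-3.90 ± 0.62) and was lowest in shSELP 1 in both classes. Nrgn, a calmodulin-binding gene known from neurons, gave 3 UMIs and was 131-fold lower (counting interval 44.7 to 637) than its 322, 358, 219 and 252 CPM. Gzmd, a granzyme, was at 0 UMIs, at least 58.9-fold lower than its 11.2, 241, 17.5 and 143 CPM.

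The regulatory rule does not ask for a Cd4 UMI, which the conventional rule does. In an alternative chosen after seeing the data, with only regulatory T cells that held a Cd4 UMI, 579 genes were called against conventional cells. With every cell thinned to 2000 UMIs 378 genes were called, 312 of them shared with the 760, and without dividing cells 505, of which 396 were shared. Further calls ended in these and other settings. Without dividing cells 20 of the named genes did not keep their call and direction, among them Mcm6, which turned (-0.24), Havcr2 (-0.79), Itgal (-0.57), Nr4a3 (-0.56), Rel (-0.39), Ier2 (-0.34), Gzmd and Tcrg-C2. With thinned cells they included Itgb1 (-0.72), Socs1 (-1.17), Rel (-0.45), Nfkb1 (-0.19) and Havcr2 (-0.98). In cells of 2000 to 8000 UMIs they included Ccl3 (-0.58), Havcr2 (-0.57) and Socs2 (0.56). With regulatory T cells that held a Cd4 UMI they included Gata3 (0.35), and with at least 2 Foxp3 UMIs Ccl5 (0.50). Without shNC 2, Gzmd was too low to be tested.

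Against CD8 T cells, 1236 of 6647 genes were called (18.6%), 664 higher (9.99%) and 572 lower (8.61%), with a median of -0.02 over all genes. Without shSELP 2 the count was 773 and without shNC 2 it was 823. Regulatory identity genes gave 10 higher and 2 lower of 14 tested, median 1.64. Izumo1r had 430.2, 302, 421 and 549 CPM against 15.0, 11.95, 8.61 and 5.37 CPM (5.21 ± 0.24, adjusted p = 1.41e-09), and Il2ra differed by 2.73 ± 0.18, Tnfrsf4 by 3.26 ± 0.18 and Icos by 1.16 ± 0.14. The lower genes were Il2rb (-0.89 ± 0.11) and Foxo1 (-0.82 ± 0.16), the latter not called with thinned cells (-0.72), without dividing cells (-0.72) or in cells of 2000 to 8000 UMIs (-0.56). Effector and tissue genes gave 13 higher and 2 lower of 17, median 1.11. Klrg1 had 1.77, 2.17, 0 and 1.79 CPM in CD8 cells (6.09 ± 0.37, adjusted p = 1.66e-08), Il1rl1 had 1.77, 3.26, 0 and 1.19 CPM (5.78 ± 0.40) and Maf had 17.2, 30.4, 21.9 and 38.2 CPM (4.44 ± 0.22, adjusted p = 1.72e-09). All 3 were higher in regulatory T cells in 4 of 4 libraries. Areg, not called against conventional cells, differed by 3.55 ± 0.43. Gzmb was lower than its 4531, 4632, 4574 and 3513 CPM in CD8 cells (-0.91 ± 0.15), so its regulatory level lay between the other classes. This call ended without dividing cells (-0.64) and in cells of 2000 to 8000 UMIs (-0.38). Itgae and Fgl2 were not called.

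Cystm1, a gene of a small membrane protein, was among the 5 largest on the higher side, with 61.9, 109, 274 and 84.8 CPM against 5.31, 8.15, 11.3 and 7.76 CPM (3.77 ± 0.38, adjusted p = 2.41e-06). The 5 largest on the lower side were genes of killer cells and of Ly6 proteins. Gzmk was at 0 UMIs, at least 51.8-fold lower than its 95.9, 127, 113 and 114 CPM, and Gzmf gave 3 UMIs, 330-fold lower (counting interval 113 to 1602) than its 382, 1890.4, 409 and 129 CPM. Klre1, a killer cell receptor, had 0, 5.60, 11.6 and 0 CPM against 215, 279.8, 129 and 203 CPM (-5.99 ± 0.43), and Klrd1 differed by -5.63 ± 0.28. Ly6c2, a surface gene of effector CD8 cells and monocytes, had 0, 89.5, 42.5 and 0 CPM against 359, 1353, 651 and 1034 CPM (-5.10 ± 0.46). Each was lower in 4 of 4 libraries, as the rule for picking these 5 asks. The killing genes as a list gave 0 higher and 9 lower of 11, median -2.99.

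Selplg was lower than in CD8 T cells, whose levels were 451, 478, 544 and 542 CPM (-0.64 ± 0.14, adjusted p = 0.00361). Selplg was lower in 4 of 4 libraries, and so was the sialyltransferase St3gal6 (-3.53 ± 0.52), while B4galt1 (-0.73 ± 0.23) was lower in 3 of 4. The list gave 0 higher and 3 lower of 7, median -0.26, and B4galt1 lost its call without shNC 2 (-0.69), shSELP 1 (-0.59) or shSELP 2 (-0.61). Homing receptors gave 6 higher and 2 lower of 13, median 0.36 (0.35 to 0.55 with a library left out). Ccr2 (2.36 ± 0.27), Itgb7 (1.55 ± 0.19), Ccr1 (2.17 ± 0.44) and Cxcr4 (1.27 ± 0.27) were higher. Ccr6 (2.02 ± 0.56) lost its call without shNC 1 (1.496) and with regulatory T cells that held a Cd4 UMI (0.99), and Cxcr3 (0.99 ± 0.29) without shNC 1 (0.61) or shSELP 2 (0.89). Cxcr4 lost its call in cells of 2000 to 8000 UMIs (0.95). Itgal (-0.82 ± 0.15) was lower but not called without dividing cells (-0.41), and Itgb1 (-0.76 ± 0.18) lost its call without shNC 2 (-0.68). Without shNC 1 the count of higher genes was 4.

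The other lists gave these counts against CD8 T cells. Suppressive molecules gave 5 higher and 5 lower of 13, median -0.23 (-0.27 to -0.01 with a library left out). Il10 (4.58 ± 0.43) and Ebi3 (3.69 ± 0.30) were on the higher side and Pdcd1 (-2.003 ± 0.17) on the lower. Costimulatory receptors gave 5 higher and 1 lower of 10, median 0.87. Interleukin 2 genes gave 4 higher and 3 lower of 14, median 0.21 (0.12 to 0.25 with a library left out). Resting genes gave 3 lower of 10, median 0.10 (-0.04 to 0.40 with a library left out), with Ccr7 (1.81 ± 0.27) higher and Tcf7 (-2.38 ± 0.53) and Bcl2 (-2.13 ± 0.25) lower. Klf2 (-0.92 ± 0.23), a factor of circulating T cells, lost its call without shNC 1 (-0.88), with thinned cells (-0.43) and in cells of 2000 to 8000 UMIs (-0.48). Cytokines gave 0 higher and 2 lower of 5, median -0.89 (-1.72 to -0.81 with a library left out). Of the 2, Ifng (-2.85 ± 0.27) was called without each library. Tnf (-0.89 ± 0.30) lost its call without any 1 of the 4 libraries (-0.81 to -1.13). Receptor signalling genes gave 4 higher and 5 lower of 14, median 0.08 (-0.16 to 0.08 with a library left out). Rel (0.88 ± 0.12) and Nfkb1 (0.72 ± 0.12) were higher and Nr4a2 (-2.40 ± 0.19) lower, and 2 genes were higher without shNC 2, shSELP 1 or shSELP 2. Interferon-stimulated genes gave 5 higher and 1 lower of 14, median 0.39, with 3 higher and 0 lower without shSELP 2, and 7 higher and 0 lower without shSELP 1. Immediate early and heat shock genes gave 0 higher and 8 lower of 15, median -0.57, and 5 lower without shNC 2. Cell cycle genes gave 0 called of 18, median 0.00 (-0.15 to 0.21 with a library left out), and 2 lower without shSELP 1.

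Whether the hairpin in the tumor cells went with a different state of the regulatory T cells was asked over the 4 libraries. Of 4398 genes tested with edgeR, 0 were called in shSELP against shNC (0%), with 197 at an unadjusted p under 0.05. DESeq2 called 0, with 40 at an unadjusted p under 0.05. The libraries of the groups did not overlap for 756 genes on the higher side (17.2% of those tested) and 731 on the lower (16.6%), and the median difference over all genes was -0.01. The count was 0 without shNC 1, 3 without shNC 2, 33 without shSELP 1 and 73 without shSELP 2. It was 42 with no filter on low counts, 3 with thinned cells, and 16 with library number as a block, although numbers do not pair libraries of different groups.

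The genes of smallest p at a mean of at least 50 CPM are given with their values, though none was called. Hsph1, a heat shock protein of the HSP110 family, had 29.3, 39.2, 174 and 95.4 CPM (1.90 ± 0.39, adjusted p = 0.694). Both shSELP libraries lay above both shNC libraries. Serpinb6a, a protease inhibitor, had 55.4, 58.8, 201 and 125 CPM (1.47 ± 0.33, adjusted p = 0.81), and Ermn, an actin-associated gene known from oligodendrocytes, had 39.1, 50.4, 178 and 102 CPM (1.58 ± 0.37). Neither overlapped between groups, and shSELP 1 was the highest library in each. Tmem158, a membrane protein gene, had 45.6, 30.8, 100.5 and 97.5 CPM (1.38 ± 0.33). Cxcl2, a chemokine for neutrophils that myeloid cells make, had 52.1, 92.3, 178 and 786 CPM (2.75 ± 0.57), with shSELP 2 far above the rest. Macrophage markers summed to 577, 680, 479 and 1950 CPM in the same cells, also highest in shSELP 2, and their part in the Cxcl2 values was not tested. On the lower side the linker histone Hist1h1c had 147, 139.9, 54.1 and 55.1 CPM (-1.38 ± 0.28, adjusted p = 0.694), where the libraries of each group lay close together and apart from the other group. Birc3, an inhibitor of cell death, had 97.8, 81.1, 46.4 and 38.2 CPM (-1.10 ± 0.32), and Slc36a3os, Nfyb and Mrpl21 differed by -1.27 ± 0.34, -1.15 ± 0.36 and -0.87 ± 0.28. Hist1h1c, Hsph1, Serpinb6a, Ermn and Cxcl2 were called with all 4 libraries when no filter on low counts was used (-1.37, 1.92, 1.48, 1.59 and 2.77) and with library number as a block (-1.37, 1.88, 1.46, 1.56 and 2.61). Hist1h1c and Cxcl2 were called without shSELP 1 (-1.37 and 3.43). Hsph1, Serpinb6a, Ermn and Cxcl2 were called without shSELP 2 (2.35, 1.83, 1.998 and 1.303).

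**Figure D3:**
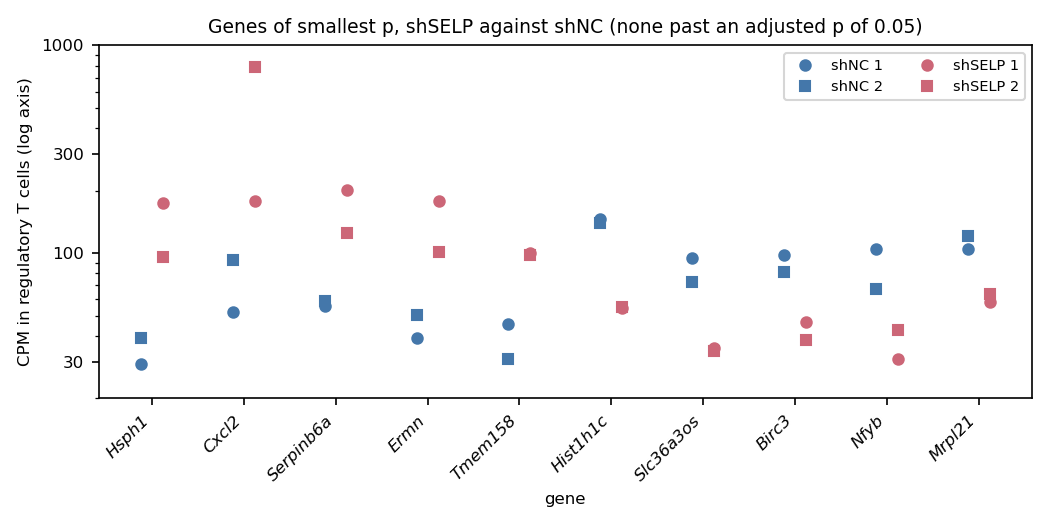
Level in regulatory T cells (y axis, CPM on a log axis) of the 10 genes of smallest p in shSELP against shNC (x axis); each point is 1 library, blue for shNC, red for shSELP, circles for number 1 and squares for number 2. None passed an adjusted p of 0.05, and Cxcl2 runs from 52.1 CPM in shNC 1 to 786 CPM in shSELP 2.

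The lists likewise held 0 called genes in shSELP against shNC. Their medians were 0.11 for identity (14 tested), 0.41 for effector and tissue genes (16), 0.09 for suppressive molecules (13), 0.25 for costimulatory receptors (8), -0.02 for interleukin 2 genes (13) and -0.06 for resting genes (7). They were 0.03 for cytokines (1), 0.28 for homing receptors (11), -0.07 for selectin ligands (5), 0.37 for killing genes (7), 0.28 for receptor signalling (13), 0.05 for interferon-stimulated genes (12), -0.13 for cell cycle (16) and 0.20 for immediate early and heat shock genes (13). With each library left out in turn, 7 of the 14 medians changed sign: killing genes ran from -0.61 to 0.35, resting genes from -0.04 to 0.49, the 1 cytokine from -0.996 to 0.46, selectin ligands from -0.58 to 0.10, interferon-stimulated genes from -0.22 to 0.53, cell cycle from -0.42 to 0.15 and immediate early and heat shock genes from -0.01 to 0.59. Within the effector list Klrg1 differed by 0.73 ± 0.33 and Il1rl1 by 1.26 ± 0.43, with the values given above and shSELP 1 highest for Il1rl1. Il1r2, a decoy receptor of interleukin 1, had 108, 151, 367 and 233 CPM (1.19 ± 0.29, adjusted p = 0.881), both shSELP libraries above both shNC libraries. Gzmb differed by -0.41 ± 0.18 and Ifng by 0.03 ± 0.41. Selplg differed by 0.07 ± 0.24, with shSELP libraries both lowest and highest. In shSELP against shNC a fit without 1 library leaves a lone library in a group, so calls within the lists are not given for such fits.

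The difference in response to shSELP between regulatory and conventional CD4 T cells was tested directly. Of 6647 genes 0 were called by edgeR (0%), with 272 at an unadjusted p under 0.05 (DESeq2 was not run on this term). The count was 28 with no filter on low counts, 3 without shSELP 1, 4 without shSELP 2, and 0 without either shNC library or with thinned cells. In the main fit the list medians, at 0 called each, were 0.29 for identity, 0.54 for effector and tissue genes, 0.25 for suppressive molecules, 0.41 for costimulatory receptors, -0.06 for interleukin 2 genes, -0.28 for resting genes and 1.20 for cytokines. They were 0.29 for homing receptors, -0.18 for selectin ligands, 0.25 for killing genes, 0.09 for receptor signalling, -0.10 for interferon-stimulated genes, -0.14 for cell cycle and 0.18 for immediate early and heat shock genes, against -0.01 over all genes. With each library left out in turn, 9 of these 14 medians changed sign. Killing genes ran from -0.16 to 0.81, homing receptors from -0.01 to 0.69, receptor signalling from -0.21 to 0.51, cell cycle from -0.46 to 0.27 and selectin ligands from -0.43 to 0.13. Interferon-stimulated genes ran from -0.23 to 0.17, suppressive molecules from -0.01 to 0.35, immediate early and heat shock genes from -0.01 to 0.38 and interleukin 2 genes from -0.07 to 0.03.

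How the cells vary among themselves was read from detection in single cells after thinning, which left 171 cells. Gzmb was found in 71.9% of them, against 13.9% of conventional and 77.2% of CD8 T cells, and in 0.885% of macrophages, which stand for free RNA. Before thinning the regulatory share was 78.1%. Ikzf2 was found in 87.1% after thinning and 98.9% before, with 0.693% of thinned macrophages. Most regulatory T cells thus held both genes. Klrg1 was found in 19.9% (30.3% before thinning) and Il1rl1 in 16.4% (28.7%), with 0 and 0.0385% of macrophages. Il10 was found in 17.5% (26.4%), and in 12.9% of macrophages, which can make it. Ifng was found in 3.51% (10.1%) against 52.3% of conventional cells and 0.308% of macrophages. Median depths before thinning were 5509, 6513, 6573 and 13771 UMIs in regulatory, conventional, CD8 and macrophage cells.

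Some genes were found in the same cells more often than others, given as a description. Klrg1 was found in 24.4% of the 123 thinned cells with Gzmb and in 8.33% of those without. Gzmb was found in 91.2% of the 57 cells with Ccr2 and in 62.3% of those without, and in 46.2% of the 39 cells with Ccr7 against 79.5% of those without. The 10 cells with dendritic genes described below held 26.6% of the Ccr7 UMIs, and their Gzmb stood at 1423 CPM against 2646 CPM in the other cells. Their part in the Ccr7 shares was not tested. Il1rl1 was found in 17.6% of the 34 cells with Klrg1 and 16.1% of those without.

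Markers of other cell types were read in the regulatory T cells. For shSELP against shNC 0 genes were called with all cells, so that counts of 0 of 2137 without the 84 cells that held a UMI of C1qa, C1qb, C1qc, Cd79a or S100a8, and 0 of 4039 without cells of dendritic genes, do not test the part of such markers. Of the 10 genes named there, 6 were tested without the 84 cells, of which Serpinb6a moved from 1.47 to 0.77, while Hist1h1c was at -1.77, Tmem158 at 1.501, Ermn at 1.51, Birc3 at -1.13 and Mrpl21 at -0.84. In the class comparisons only the part of dendritic genes was examined, as given below. Of 10 macrophage and monocyte markers 9 were detected, summing to 577, 680, 479 and 1950 CPM with Apoe the most abundant, while Ms4a7 is at 0 by the rule. Conventional cells held 345, 1485, 1598 and 1061 CPM. The defining microglia genes P2ry12 and Sall1 were at 0. Of 6 B and plasma cell markers 6 were detected (443, 146, 301 and 84.8 CPM, mostly Igkc, against 67.1, 14.2, 5.26 and 35.9 CPM in conventional cells), and the UMIs of Cd79a (71.7, 30.8, 0 and 0 CPM) came from 2 cells. The NK markers were all detected (13.0, 104, 506 and 17.0 CPM, mostly Gzma), highest in shSELP 1, where the defining receptor Ncr1 reached 27.1 CPM and was at 0 elsewhere. The 4 gamma-delta T cell markers were at 0 in every library, which leaves Tcrg-C2 at least 3.98-fold lower than in conventional and 38.6-fold lower than in CD8 T cells. Against conventional cells its call ended without shNC 1, without shSELP 2, without dividing cells and with regulatory T cells that held a Cd4 UMI. Of the CD8 markers, Cd8a and Cd8b1 are at 0 by the rule and Gzmk was at 0 as well, and Ccl5 with Nkg7 summed to 1382, 1573, 1925 and 3256 CPM.

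Neutrophil markers summed to 0, 0, 0 and 21.2 CPM (2 of 5 detected, mostly Csf3r) with S100a9, Retnlg and Cxcr2 at 0. Tumor cell markers summed to 42.4, 33.6, 38.7 and 48.8 CPM (5 of 6, mostly Prph) with Sox2 at 0. Endothelial and mural markers gave 65.2, 44.8, 96.6 and 86.9 CPM (2 of 4, mostly Pecam1, which T cells also express) with Vtn and Rgs5 at 0. Sele, the E-selectin gene, is not in this list and gave 0, 0, 30 and 0 UMIs in the regulatory T cells. Over all cells of the libraries it gave 43, 11, 98 and 12 UMIs. The source of its UMIs in shSELP 1, and their part in other values of that library, was not tested. Oligodendrocyte markers gave 45.6, 39.2, 30.9 and 36.0 CPM (3 of 4, mostly Mbp), and red blood cell markers 0, 0, 7.73 and 0 CPM (1 of 4, Hbb-bs). Neutrophil UMIs came only from shSELP 2 and red cell UMIs only from shSELP 1. General T cell markers were all detected, with Trac at 1179.9, 1080.1, 1299 and 1382 CPM, near the conventional 1147 to 1267 CPM (-0.01 ± 0.10). Over the marker lists tested against conventional cells, the called genes were Il2ra, Ctla4 and Tnfrsf4 of the regulatory markers, Cd2 (0.71, higher) and Trbc2 (-1.28, lower) of the T cell markers, Ccl5, Nkg7 and Gzmk of the CD8 markers, Tcrg-C2, Klre1 of the NK markers, and Fscn1 of the dendritic markers. Of 8 macrophage markers tested 0 were called, with a median of -0.30. Against CD8 T cells 0 of the 8 were called, with a median of 0.66. Of markers of other cell types outside the T and NK lineages, Fscn1 (3.37) and Cst3 (1.24), both of the 2 dendritic markers tested (median 2.30), and Pecam1 (0.85) were called higher there. In shSELP against shNC 0 of the 7 macrophage markers tested were called, with a median of 1.003 against -0.01 over all genes. By edgeR 3 of the 7 had an unadjusted p under 0.05. This was the largest shift of the macrophage markers over the 3 comparisons. The medians were -3.64 for the 2 B and plasma cell markers tested, 1 of them at an unadjusted p under 0.05, and 2.02 for the 1 NK marker, with 0 called. The part of such markers in the other shSELP differences was not tested, but for the 6 genes given above.

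Dendritic cell genes summed to 557, 2543, 1214 and 1174 CPM (5 of 6 detected, mostly Cst3), against 371, 469.6, 1202 and 792 CPM in conventional cells, higher in 4 of 4 libraries and close together in shSELP 1. Fscn1, an actin-bundling gene of mature dendritic cells, had 55.4, 143, 104 and 65.7 CPM against 0, 1.19, 1.75 and 13.2 CPM in conventional cells (3.93 ± 0.48). The UMIs of Fscn1 came from 9 cells. In 10 cells (5.62%) with a UMI of Fscn1, Flt3, Xcr1 or Cd209a, the median depth was 11900 UMIs against 5220.5 in the other 168. These cells held 26.6% of the Ccr7 UMIs, 31.7% of those of Cst3 and 40.8% of those of the chemokine gene Ccl22, with Foxp3 at 208 CPM against 361 CPM and Ikzf2 at 679 CPM against 1463 CPM in the others. Without such cells in any class, a choice made after seeing the data, 714 genes were called against conventional and 1153 against CD8 T cells. Calls that ended included Socs2 (0.53), Stat5a (-0.87) and Gzmc (-2.99) against conventional cells, and Ccr6 (1.38) and Socs2 (0.55) against CD8 T cells. Ttr, a transthyretin gene of the choroid plexus, had 22.8, 78.3, 1159.5 and 117 CPM, and 1489 CPM in conventional and 1924 CPM in CD8 T cells of shSELP 1, so all 3 classes of that library stood apart for it.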

How the data were processed

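The authors aligned reads of the mouse libraries to mm10 and counted UMIs with Cell Ranger 1.3. The deposited mix table holds raw counts per gene and cell, neither normalized nor scaled. The mix table lists 20300 genes in 9172 cells, with 22945972, 22626413, 17398121 and 25589350 UMIs and medians of 9015, 7579, 5887 and 9388 UMIs per cell in shNC 1, shNC 2, shSELP 1 and shSELP 2. Library and group were read from the prefix of each cell's column, and 0 columns matched no library. Cells under 500 genes (446) were left out. The limit of 3 UMIs over the regulatory sums of a library is 9.78, 8.39, 11.6 and 6.36 CPM. The table of CD11b+ cells does not list Foxp3 and was not used. No doublet caller was run: the rule leaves out cells with Cd8 or Ms4a7 UMIs, and cells with dendritic genes were left out in an alternative.

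UMIs were summed per library and class and compared in R 4.3.3 by quasi-likelihood F tests of edgeR 4.0.16 after filterByExpr and TMM, with Benjamini-Hochberg adjustment over all genes tested and calls at an adjusted p under 0.05. DESeq2 1.42.0 was the other tool. Regulatory sums alone served for shSELP against shNC. The class comparisons and the test of the difference in response used 12 sums with library as a block. The fit was also run on simulated counts with known changes at a fixed dispersion, which checks the code and not the results for these cells. Shares were compared by exact permutation over libraries, with Clopper-Pearson 95% intervals, with scipy 1.17.1, numpy 2.4.6, pandas 2.3.3 and matplotlib 3.10.9 under Python 3.11.15. Intervals and limits cover counting error only. Coordinates come from GENCODE M21.

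The members, the 14 gene lists and the 14 marker lists were chosen with earlier results of these data known. Genes named beyond the lists are the 10 called genes of largest log2 fold change in each direction against conventional cells and the 5 against CD8 cells, at a mean of at least 50 CPM and the same direction in all 4 libraries. For shSELP against shNC they are the 5 of smallest p in each direction at that mean. Ribosomal, mitochondrial, immunoglobulin, receptor variable and predicted genes were passed over (1 higher against conventional cells, 2 lower in shSELP). Alternatives were every library left out once, fits with low counts kept in, DESeq2, library number as a block or no block, cells thinned to 2000 UMIs (seed 1), cells of 2000 to 8000 UMIs, at most 10% mitochondrial counts (which left out 0 regulatory T cells), at least 2 Foxp3 UMIs, no cells with Mki67 or Top2a UMIs, no cells with C1qa, C1qb, C1qc, Cd79a or S100a8 UMIs and other denominators. Some members of the lists are not reported here. Added after seeing the data were no cells with dendritic genes and regulatory T cells with a Cd4 UMI only.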

Additional observations from a re-analysis of the deposited data

Results flagged for a closer look

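Among the 5724 cells of the CD11b+ libraries, which no comparison here uses, 29 held a Cd3 UMI, a T cell signal in cells sorted for a myeloid marker. Foxp3 is not listed in that table, so the rule for regulatory T cells was not applied to it.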

How the results depend on the processing

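The difference in the share of cells with a Cd3 UMI, -0.910 points, turned to 0.247 with at least 2 Foxp3 UMIs, and ran from -2.02 to 0.204 with each library left out in turn. Among regulatory and conventional CD4 T cells the difference of -9.11 points became -0.476 with a Cd4 UMI asked for in both classes. The limit of 10% on mitochondrial counts left out 0 regulatory T cells and changed no sum in any class, so it tests nothing here. For shSELP against shNC, 0 genes were called with edgeR and with DESeq2, 42 with no filter on low counts, 16 with library number as a replicate block, 3 with thinned cells, and 0 to 73 with a library left out, where the lone library of a group is assumed to vary like the others. The difference of library 1 from library 2 in shNC correlated by 0.0669 with that in shSELP over 4398 genes, and nothing in the labels pairs the numbers. Against conventional CD4 T cells 760 became 378 with thinned cells, 505 without dividing cells and 403 to 727 with a library left out, and between 535 and 1047 in the other settings. Mcm6 turned to -0.0462 in cells of 2000 to 8000 UMIs and to -0.24 without dividing cells. Against CD8 T cells 1236 became 614 with thinned cells, 773 to 1125 with a library left out, and 828 to 1615 in the others. With no filter the median over all genes against CD8 T cells shifted to -0.16. For the difference in response 0 became 28 with no filter and 0 to 4 with a library left out. Thinned cells and left-out libraries leave fewer counts, but the cause of these moves, which went both up and down, was not tested. Of the named genes, 55 of 88 against conventional and 69 of 99 against CD8 T cells kept their call and direction in every setting that tested them. With 32 to 51 cells per library, 3 UMIs correspond to 6.36 to 11.6 CPM, and smaller levels are not resolved.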

Other observations

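The following called genes lie outside the lists and the rule for named genes, and were picked by hand after their values were seen. Ass1, an enzyme of arginine synthesis, had 196, 241, 232 and 295 CPM in regulatory T cells against 57.8, 60.5, 54.3 and 39.5 CPM in conventional CD4 T cells (2.22 ± 0.22), and was higher in 4 of 4 libraries without overlap. Glrx, a glutaredoxin that repairs oxidized thiols, had 639, 476, 932 and 748 CPM against 153, 136, 137 and 150.1 CPM (2.20 ± 0.16). Fabp5, a fatty acid carrier, had 205, 596, 301 and 349.7 CPM against 129, 80.6, 89.3 and 90.9 CPM (1.87 ± 0.28), highest in shNC 2. The GTPases Gimap4 and Gimap6 differed by 1.43 ± 0.14 and 1.33 ± 0.14, alongside Gimap7. Hopx, a homeodomain cofactor of effector T cells, differed by 1.53 ± 0.15 and Vim, the intermediate filament vimentin, by 1.11 ± 0.15. Against CD8 T cells, Timp2, an inhibitor of matrix proteases, had 169, 146, 259 and 208 CPM against 10.2, 10.9, 23.8 and 13.1 CPM (3.67 ± 0.20), and Odc1, the rate-limiting enzyme of polyamine synthesis, had 2334, 1701, 3873 and 2232 CPM against 475, 525, 486 and 538 CPM (2.14 ± 0.16). Penk, which encodes proenkephalin, had 22.8, 171, 390.4 and 178 CPM against 34.0, 22.8, 9.93 and 0.597 CPM (3.18 ± 0.59), lowest in shNC 1 among regulatory T cells.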
